A study of Mus musculus with 12 samples.

Results

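The genes described here work on protein folding in the endoplasmic reticulum (ER) and in the unfolded protein response. They comprise 32 of the 51707 genes in the annotation. They were chosen by symbol, with earlier results of these data known, and not by a threshold on any measured value. They fall into folding chaperones (5 genes), cochaperones of BiP and secreted ER proteins (7), protein disulfide isomerases (4), ER-associated degradation (8), stress sensors and regulators (5), and translocation and export (3). Of the 32, 31 had enough reads to be tested. The exception was Derl3, one of the derlin genes of ER-associated degradation, with 0 reads in all 12 libraries, which allows up to 0.0413 to 0.0477 CPM (reads per 1000000 reads of the library) in a group (3 reads over the group, counting error only).

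RNA was sequenced from cells labelled MLO-Y4, an osteocyte-like mouse cell line, wild type in all groups and grown on plates coated with type I collagen (0.15 mg/mL). The 4 groups of 3 libraries were undifferentiated control, undifferentiated with recombinant human BIGH3 (the secreted matrix protein of the TGFBI gene), differentiated control and differentiated with BIGH3. The differentiation medium held 50 µg/mL ascorbic acid, 4 mM β-glycerophosphate and 10% fetal bovine serum, and the labels give no medium for the undifferentiated cells, so the state and the medium cannot be told apart. The BIGH3 dose, the duration and what the controls received are not given in the sources used here, nor whether libraries of 1 group are separate cultures. The p-values therefore measure the spread between libraries, which may be technical. The names of the deposited files carry a prefix other than the labelled line, and the identity of the cells was not tested. The stated question of the study is the effect of BIGH3 on a gap junction gene of osteocytes, and the ER genes are described here as part of the same transcriptome.

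Secreted and membrane proteins enter the ER through the Sec61 channel, fold with the help of chaperones such as BiP (Hspa5), calreticulin and calnexin, form disulfide bonds with the protein disulfide isomerases, and leave in COPII vesicles. Proteins that do not fold are returned to the cytosol and destroyed, which is called ER-associated degradation. When unfolded proteins accumulate, the sensors IRE1 (Ern1), PERK (Eif2ak3) and ATF6 start the unfolded protein response: IRE1 splices the mRNA of the transcription factor XBP1, ATF6 is cut to release a transcription factor, and PERK phosphorylates eIF2α and slows translation. Bone-forming cells and early osteocytes secrete large amounts of collagen and depend on this machinery.

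Depth was 19014492 to 27612155 estimated reads per library. Liver transcripts, which such cells are not known for, were uneven: the 18 liver markers summed to 127 CPM (scaled by TMM) in undifferentiated control 2, 69.3 in differentiated BIGH3 3, 65.8 in differentiated control 2 and 29.3 in undifferentiated BIGH3 1, against 7.54 to 25.1 CPM in the other 8 libraries. The counts of genes called below were recomputed with the 3 libraries richest in these transcripts left out and without all 4. The 9 osteocyte markers summed to 459 to 498 CPM in undifferentiated libraries and 475 to 492 in differentiated controls, against 614 to 648 with BIGH3 in that state. Of the 5 that could be tested 3 rose and 2 fell there with BIGH3, with log2 fold changes from -1.81 to 1.21. Most of the sum was Pdpn (183 to 294 CPM) and Gja1 (115 to 213 CPM). Phex stood at 7.21 to 9.19 CPM in undifferentiated libraries, 80.2 to 87.3 in differentiated controls and 20.9 to 25.6 with BIGH3 in that state. Dmp1 stood at 51.7 to 61.9, 35.6 to 38.6 and 80.1 to 95.3 CPM in the same order. Of the genes that define mature osteocytes Sost had 10 reads over all libraries and Fgf23 had 0. The 10 osteoblast markers summed to 10815 to 12607 CPM in undifferentiated libraries and 12436 to 13428 in differentiated controls, against 17782 to 19401 with BIGH3 in that state. Spp1 carried that last difference, at 3211 ± 98.1 and 10599 ± 460 CPM, while 8 of the 10 fell with BIGH3 in differentiated cells and the median log2 fold change was -0.80. The 7 plasma and B cell markers, whose cells are rich in ER chaperones, summed to 4.31 to 5.44 CPM in undifferentiated libraries and 189 to 199 in differentiated controls, against 116 to 123 with BIGH3 in that state. Nearly all of this was Ighm, while Igkc had 1 read over all libraries, Mzb1 12, Cd79a 14 and Jchain 25. Macrophage and osteoclast markers (8 genes, mostly Lyz2, Cd14 and Ctsk) summed to 34.6 to 38.2 CPM in undifferentiated libraries and 89.0 to 92.4 in differentiated controls, against 74.7 to 86.9 with BIGH3 in that state. Endothelial markers (5 genes) summed to 4.4 to 8.0 CPM throughout. The part of these markers in the results below was not tested. In bulk RNA, fewer cells of a type and less RNA per cell cannot be told apart.

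Short sequence elements near the start of these genes are the best known link between ER stress and their transcription, so their promoter sequence is shown first. Windows of 300 bases around the start of a gene (250 before and 50 after, RefSeq, GRCm38.p6) were given for 25 of the 32 genes. They were searched on both strands for 3 patterns: ERSE (CCAAT, 9 bases of any kind, CCACG), ERSE-II (ATTGG, 1 base of any kind, CCACG) and the core of the UPRE (TGACGTGG), which are recognised by ATF6 with NF-Y, by ATF6 or XBP1, and by XBP1, respectively. Only exact matches were counted, so near matches are not marked, and no match overlapped another. ERSE was present in 9 of the 25 members (36.0%) against 39 of 32851 windows of all genes (0.119%), ERSE-II in 2 against 12 windows (0.0365%) and the UPRE core in 1 against 222 windows (0.676%). Several of these genes are textbook examples of such elements, so the shares describe the list. A match is a stretch of letters, and binding was not measured. Starts are those of RefSeq, and some transcripts of the GENCODE annotation used for counting begin inside a window.

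The matches are listed to let the fixed and the free bases be compared, each read 5′ to 3′ on the strand that carries CCAAT or ATTGG, with the fixed bases in capitals.
Hspa5 ERSE (-65 to -47 from the start, on the strand of the gene): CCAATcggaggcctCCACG
Hsp90b1 ERSE (-212 to -194 from the start, on the strand of the gene): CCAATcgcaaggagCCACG
Hsp90b1 ERSE (-107 to -89 from the start, on the opposite strand): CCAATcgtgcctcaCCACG
Calr ERSE (-162 to -144 from the start, on the opposite strand): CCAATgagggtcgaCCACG
Canx ERSE (-145 to -127 from the start, on the strand of the gene): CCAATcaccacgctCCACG
Dnajc3 ERSE (-105 to -87 from the start, on the strand of the gene): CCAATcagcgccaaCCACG
Creld2 ERSE (-126 to -108 from the start, on the opposite strand): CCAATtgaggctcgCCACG
Pdia6 ERSE (-98 to -80 from the start, on the strand of the gene): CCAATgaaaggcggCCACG
Syvn1 ERSE (-44 to -26 from the start, on the strand of the gene): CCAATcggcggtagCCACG
Derl3 ERSE (-156 to -138 from the start, on the opposite strand): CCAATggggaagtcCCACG
Herpud1 ERSE-II (-52 to -42 from the start, on the strand of the gene): ATTGGgCCACG
Dnajb11 ERSE-II (7 to 17 from the start, on the strand of the gene): ATTGGcCCACG
Of the 9 free bases between CCAAT and CCACG, 6 or 7 were G or C in all 10 ERSE matches. The 250 bases before the start of these genes were 56.4% (Syvn1) to 73.6% (Dnajc3) G or C, so such bases were common there as a whole. Hsp90b1 held 2 matches, on opposite strands, and 6 of the 10 lay on the strand of the gene.

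The 250 bases before the start are shown whole for 4 genes: Hspa5 and Hsp90b1 as the central ER chaperones, Herpud1 for the ERSE-II pattern, and Sec24d for the UPRE core. The mRNA of Sec24d changed in every comparison but that of BIGH3 in undifferentiated cells. So did those of Sec61b, Pdia4, Sdf2l1, Os9 and Xbp1, whose windows hold no match. Capitals mark the matches.
Hspa5 (chr2:34771840-34772089, plus strand): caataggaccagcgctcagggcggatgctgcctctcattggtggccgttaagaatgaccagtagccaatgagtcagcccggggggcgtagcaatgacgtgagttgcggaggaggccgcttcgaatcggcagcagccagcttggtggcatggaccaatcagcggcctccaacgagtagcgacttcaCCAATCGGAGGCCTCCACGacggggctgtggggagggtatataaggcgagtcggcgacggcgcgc
Hsp90b1 (chr10:86705445-86705694, minus strand): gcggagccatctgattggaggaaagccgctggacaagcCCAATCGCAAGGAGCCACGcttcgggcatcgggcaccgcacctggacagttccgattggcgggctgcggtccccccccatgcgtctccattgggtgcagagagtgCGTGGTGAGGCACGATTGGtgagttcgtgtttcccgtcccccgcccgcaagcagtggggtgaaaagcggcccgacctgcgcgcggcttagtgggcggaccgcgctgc
Herpud1 (chr8:94386179-94386428, plus strand): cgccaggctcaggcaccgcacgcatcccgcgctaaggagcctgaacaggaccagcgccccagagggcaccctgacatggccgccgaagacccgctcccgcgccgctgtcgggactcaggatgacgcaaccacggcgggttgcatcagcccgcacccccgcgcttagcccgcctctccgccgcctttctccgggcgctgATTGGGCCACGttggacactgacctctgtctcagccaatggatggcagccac
Sec24d (chr3:123267246-123267495, plus strand): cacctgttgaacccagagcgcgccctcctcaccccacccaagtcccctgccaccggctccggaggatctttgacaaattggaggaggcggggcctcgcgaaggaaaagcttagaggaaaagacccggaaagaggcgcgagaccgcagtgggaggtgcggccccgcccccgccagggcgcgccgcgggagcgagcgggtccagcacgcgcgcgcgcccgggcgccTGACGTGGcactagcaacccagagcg
The Hspa5 match lies 65 to 47 bases before the RefSeq start and the Sec24d match 26 to 19 bases before it. Both matches lie inside the GENCODE genes used for counting, which begin at 34771970 (Hspa5) and 123267455 (Sec24d).

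**Figure D1:**
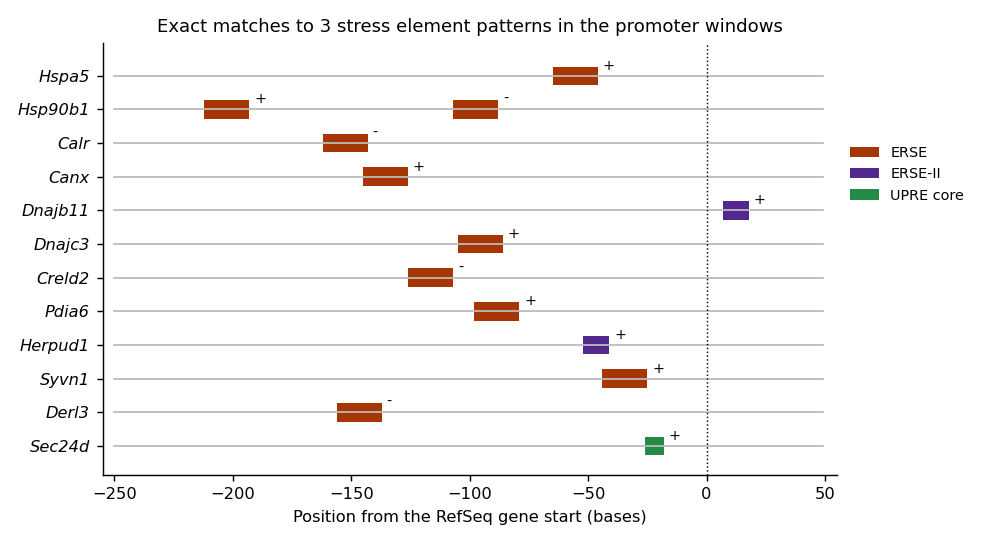
Position of each match (coloured boxes) in the promoter windows of the 12 members that hold one, in bases from the RefSeq start (dotted line), with the strand in the window beside it. All matches but that of Dnajb11 (7 to 17) lie before the start, and Hsp90b1 is the single gene with 2.

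In undifferentiated controls the 6 most abundant of the 32 mRNAs per length encoded chaperones and disulfide isomerases, although Hyou1 (51.2 ± 4.49 TPM) and Pdia6 (28.5 ± 3.03 TPM) stood far lower. Pdia3 stood highest at 762 ± 36.3 TPM (transcripts per 1000000, SD, n = 3), followed by P4hb at 653 ± 39.6, Hsp90b1 at 605 ± 58.6, Canx at 574 ± 93.3, Calr at 556 ± 48.8 and Hspa5 at 540.5 ± 28.2. Neighbours from P4hb to Hspa5 lay within the sum of their SDs. Sec61b followed at 360.3 ± 39.0. The 3 sensors stood at the low end together with the cochaperone gene Dnajb9 (8.55 ± 0.809 TPM): Eif2ak3 at 14.6 ± 1.14, Atf6 at 11.6 ± 0.533 and Ern1 at 6.33 ± 0.392 TPM, each apart from its neighbour by more than the sum of their SDs. In differentiated controls the order changed at the top: Sec61b led with 838 ± 54.1 TPM, ahead of Calr at 746 ± 45.3 and Pdia3 at 715 ± 49.5. With BIGH3 in differentiated cells Pdia3 (718 ± 18.2) and Calr (708 ± 27.2) led and Sec61b stood at 475 ± 3.74 TPM. Summed over the 32 genes, TPM was 5544 ± 319 in undifferentiated controls, 5398 ± 276 in undifferentiated BIGH3 libraries, 6293 ± 348 in differentiated controls and 5853 ± 126 in differentiated BIGH3 libraries, or 0.554%, 0.540%, 0.629% and 0.585% of all transcripts. All values below are in CPM, which compare a gene between libraries and not with another gene. Between the 3 libraries of a group, the SD of a member was 4.00% of its mean at the median.

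With BIGH3 in differentiated cells these genes went both ways. Of 31 tested, 7 rose and 8 fell (edgeR quasi-likelihood, Benjamini-Hochberg adjusted p below 0.05), and the median log2 fold change was -0.01, the same as over all genes. Over all 14711 genes tested 22.6% were higher and 22.9% lower, so both shares are near the background. The members that rose were Ppp1r15b (0.88 on the log2 scale), Sec24d (0.51), Atf6 (0.37), Pdia4 (0.34), Hyou1 (0.25), Eif2ak3 (0.18) and Edem1 (0.18). Those that fell were Sec61b (-0.90), Sdf2l1 (-0.53), Os9 (-0.30), Xbp1 (-0.23), Sil1 (-0.22), Derl1 (-0.16), Sel1l (-0.15) and Canx (-0.12). No member differed by more than 2-fold. With the 3 libraries richest in liver transcripts left out 6 rose and 8 fell, and without all 4 it was 6 and 6. Over all genes the calls fell as well, from 6687 with all libraries to 5393 without the 3 and 5399 without the 4. In undifferentiated cells, 0 of the 31 were called. In the paragraphs that follow, each gene is given in every library, then its BIGH3 effect in differentiated cells as log2 fold change ± SE (8 residual degrees of freedom) with the adjusted p of edgeR's test.

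**Figure D2:**
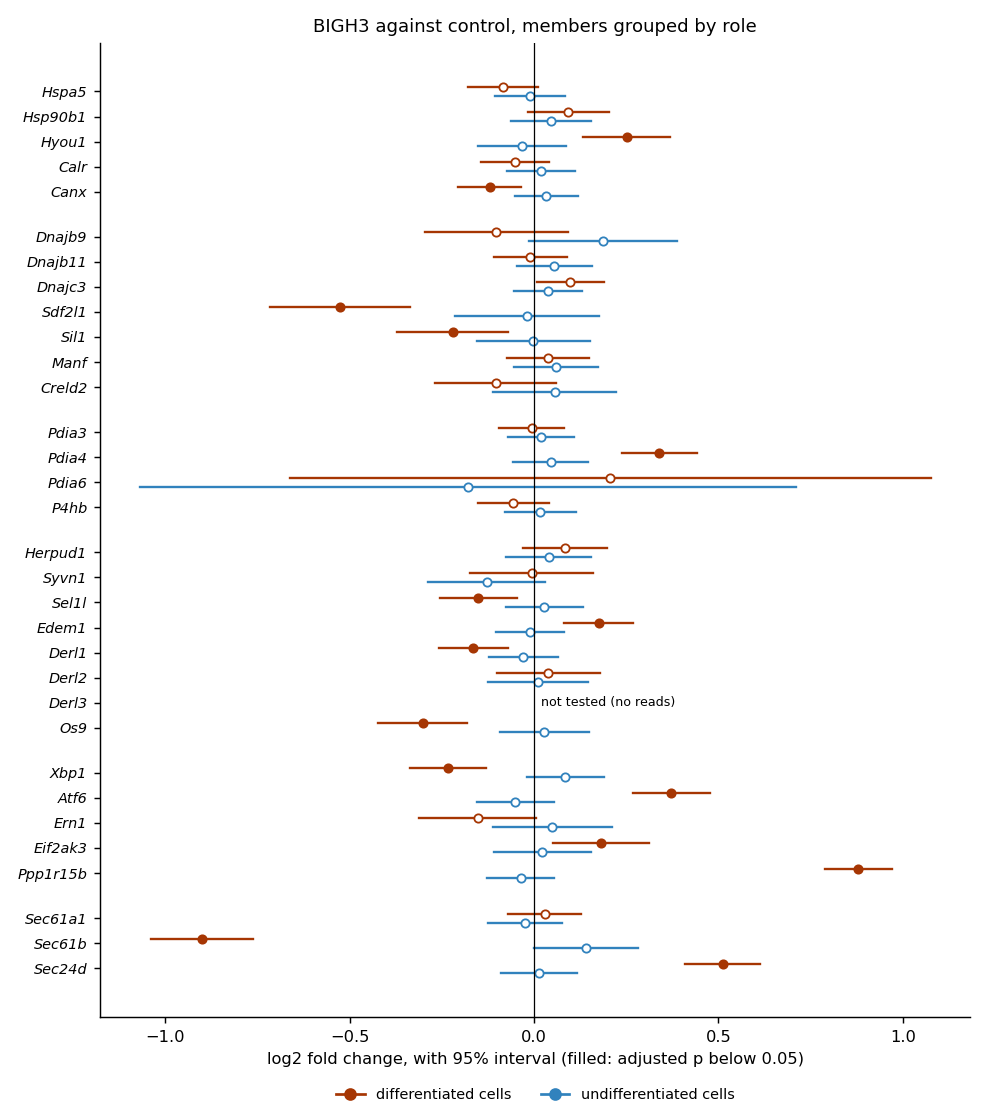
Log2 fold change of each member with BIGH3 against control (points) with its 95% interval (lines), in differentiated (brown) and undifferentiated (blue) cells, with genes grouped by role and filled points for an adjusted p below 0.05. In differentiated cells Ppp1r15b (0.88) and Sec61b (-0.90) lie farthest out on either side, while the undifferentiated values lie between -0.18 and 0.19 with none filled.

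Among the folding chaperones, 1 of 5 rose and 1 fell with BIGH3 in differentiated cells. Hspa5 encodes BiP, the Hsp70 of the ER that also holds the stress sensors inactive (ENSMUSG00000026864.13, chromosome 2, 34771970 to 34777547, plus strand, GENCODE M21 on GRCm38, as for all positions of genes), and stood at 758, 786 and 839 CPM in undifferentiated controls and 795, 771 and 797 with BIGH3. Hspa5 in differentiated cells stood at 1206, 1119 and 1155 CPM in controls and 1091, 1093 and 1099.9 with BIGH3. The treated differentiated libraries lay just below the controls of that state, and the test did not call the difference (-0.08 ± 0.05, adjusted p = 0.141). Hsp90b1, the ER's Hsp90, stood at 1038, 1078 and 1199.8 CPM in undifferentiated controls and 1137, 1162 and 1123 with BIGH3. Hsp90b1 in differentiated cells stood at 1229.6, 1132 and 1186 CPM in controls and 1319.6, 1252 and 1213 with BIGH3. Its differentiated groups overlapped (0.09 ± 0.05, adjusted p = 0.158). Hyou1, a large Hsp70 relative that exchanges the nucleotide of BiP, stood at 135, 148 and 156 CPM in undifferentiated controls and 151, 136 and 142 with BIGH3. Hyou1 in differentiated cells stood at 160.2, 155 and 146 CPM in controls and 186, 186 and 177 with BIGH3. All 3 treated differentiated libraries lay above every other library, a 1.19-fold rise over the differentiated controls (0.25 ± 0.06, adjusted p = 0.00116). Calr, encoding the calcium-binding lectin calreticulin, stood at 554, 566 and 604 CPM in undifferentiated controls and 589, 586 and 572 with BIGH3. Calr in differentiated cells stood at 975, 939.7 and 969.5 CPM in controls and 944, 940.4 and 899 with BIGH3, and the differentiated groups overlapped (-0.05 ± 0.04, adjusted p = 0.364). Canx, encoding its membrane-bound relative calnexin, stood at 946, 945 and 997 CPM in undifferentiated controls and 982, 1007 and 965 with BIGH3. Canx in differentiated cells stood at 1184, 1147 and 1169 CPM in controls and 1085, 1065 and 1068 with BIGH3. It was 1.09-fold lower with BIGH3 in differentiated cells (-0.12 ± 0.04, adjusted p = 0.0203). That call was lost without differentiated BIGH3 2 (adjusted p = 0.0563), in TPM (0.14), without the 4 libraries with liver transcripts (0.0689) and without a filter on low counts (0.0573).

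Of the 7 cochaperones and secreted ER proteins, 0 rose and 2 fell. Sdf2l1, a stress-induced partner of BiP's J-domain proteins, stood at 25.7, 22.2 and 21.9 CPM in undifferentiated controls and 23.1, 19.8 and 25.7 with BIGH3. Sdf2l1 in differentiated cells stood at 43.4, 40.2 and 37.9 CPM in controls and 30.7, 26.8 and 26.8 with BIGH3. Differentiated controls lay highest and the treated libraries of that state between them and the undifferentiated ones, a 1.44-fold fall with BIGH3 (-0.53 ± 0.09, adjusted p = 7.81e-05). Sil1, a nucleotide exchange factor of BiP, stood at 32.1, 33.4 and 37.6 CPM in undifferentiated controls and 35.6, 31.7 and 35.7 with BIGH3. Sil1 in differentiated cells stood at 52.7, 51.6 and 48.5 CPM in controls and 40.9, 44.1 and 46.2 with BIGH3. It showed the same order of groups (-0.22 ± 0.07, adjusted p = 0.0164), but the call was lost without differentiated control 1 (adjusted p = 0.0512) or BIGH3 1 (0.0809), in TPM (0.316) and with offsets for effective length (0.163). Dnajc3, encoding the J-domain protein p58IPK, stood at 209.6, 214 and 224 CPM in undifferentiated controls and 224, 218 and 223 with BIGH3. Dnajc3 in differentiated cells stood at 259.7, 257 and 264 CPM in controls and 278, 283 and 276 with BIGH3. The treated differentiated libraries lay above the controls. The difference was not called by edgeR (0.10 ± 0.04, adjusted p = 0.0723) but was by DESeq2 (adjusted p = 0.0433). Dnajb9, encoding ERdj4, which brings BiP to IRE1, stood at 10.9, 13.3 and 13.2 CPM in undifferentiated controls and 13.3, 15.5 and 13.9 with BIGH3. Dnajb9 in differentiated cells stood at 21.2, 20.9 and 20.8 CPM in controls and 19.3, 21.7 and 17.7 with BIGH3, with overlapping differentiated groups (-0.10 ± 0.09, adjusted p = 0.393). Dnajb11, encoding the J-domain protein ERdj3, stood at 107, 107 and 115 CPM in undifferentiated controls and 114, 112 and 116 with BIGH3. Dnajb11 in differentiated cells stood at 155, 144 and 153 CPM in controls and 154, 149 and 146 with BIGH3 and differed little with BIGH3 (log2 fold change 95% interval -0.11 to 0.09). Manf, a secreted protein induced by ER stress, stood at 92.1, 93.2 and 95.2 CPM in undifferentiated controls and 104, 94.2 and 94.5 with BIGH3. Manf in differentiated cells stood at 166, 151 and 154 CPM in controls and 171, 159 and 153 with BIGH3, again with overlap between the differentiated groups (95% interval -0.07 to 0.15). Creld2, another secreted ER stress protein, ranged from 45.3 to 53.8 CPM in differentiated and from 32.3 to 42.1 CPM in undifferentiated libraries (-0.10 ± 0.08 with BIGH3 in differentiated cells, adjusted p = 0.298).

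Among the 4 disulfide isomerases, Pdia4 rose and 0 fell. Pdia4, encoding ERp72, stood at 261, 256 and 271 CPM in undifferentiated controls and 279, 263 and 270.2 with BIGH3. Pdia4 in differentiated cells stood at 333, 307 and 304 CPM in controls and 396, 414 and 386 with BIGH3. Each treated differentiated library lay above each control, a 1.27-fold rise (0.34 ± 0.05, adjusted p = 8.32e-06), held under all alternatives run. Pdia3, encoding ERp57, the partner of calnexin and calreticulin, stood at 1290.3, 1318 and 1365 CPM in undifferentiated controls and 1354, 1329 and 1344 with BIGH3. Pdia3 in differentiated cells stood at 1567, 1443 and 1519.7 CPM in controls and 1535, 1499 and 1474 with BIGH3. The differentiated groups overlapped, with a 95% interval of the log2 fold change of -0.10 to 0.08. P4hb encodes protein disulfide isomerase itself, which is also a subunit of collagen prolyl hydroxylase, and stood at 918, 909 and 951 CPM in undifferentiated controls and 963, 894 and 955 with BIGH3. P4hb in differentiated cells stood at 1253, 1183 and 1144 CPM in controls and 1167, 1159 and 1117 with BIGH3 (95% interval -0.15 to 0.04). Pdia6 was the least even gene of the list, at 34.0, 36.2 and 29.1 CPM in undifferentiated controls and 29.2, 26.2 and 32 with BIGH3. Pdia6 in differentiated cells stood at 35.8, 36.2 and 55.4 CPM in controls and 43.4, 79.3 and 24.2 with BIGH3. Differentiated BIGH3 2 was 3.28 times as high as BIGH3 3 of the same group, and the log2 fold change of 0.21 ± 0.38 (adjusted p = 0.698) leaves a 95% interval of -0.66 to 1.08, so a difference of the size seen in Pdia4 was not detectable.

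ER-associated degradation held 8 members, of which 7 were tested, 1 rose and 3 fell. Os9, a lectin that selects misfolded glycoproteins, stood at 254, 258 and 301 CPM in undifferentiated controls and 289, 272 and 268 with BIGH3. Os9 in differentiated cells stood at 432, 401 and 413 CPM in controls and 343, 337 and 330.3 with BIGH3. The treated differentiated libraries lay between the differentiated controls and the undifferentiated libraries, 1.23-fold below the former (-0.30 ± 0.06, adjusted p = 0.000219). Derl1, a channel-forming derlin, stood at 133, 132 and 127 CPM in undifferentiated controls and 128, 125 and 130.4 with BIGH3. Derl1 in differentiated cells stood at 159.9, 167 and 162 CPM in controls and 149, 146 and 141 with BIGH3, in the same order of groups (-0.16 ± 0.04, adjusted p = 0.00485, and 0.101 without the 4 libraries with liver transcripts). Sel1l, the adaptor of the ubiquitin ligase of this pathway, stood at 169, 177 and 187 CPM in undifferentiated controls and 188, 177 and 179 with BIGH3. Sel1l in differentiated cells stood at 185, 186 and 175 CPM in controls and 158, 167 and 167 with BIGH3. The treated differentiated libraries were the lowest of all, below every library of the other groups (-0.15 ± 0.05, adjusted p = 0.0179). This call was lost without differentiated control 2 (adjusted p = 0.05) or BIGH3 1 (0.0689), without the 3 or 4 libraries with liver transcripts (0.0575 and 0.0787), in TPM (0.302) and with offsets for effective length (0.0867). Edem1, a mannosidase-like protein that marks glycoproteins for removal, stood at 96.7, 103 and 106 CPM in undifferentiated controls and 102, 99.7 and 102 with BIGH3. Edem1 in differentiated cells stood at 95.2, 99.3 and 95.6 CPM in controls and 110.1, 108 and 109 with BIGH3. It was the member of this role that rose, 1.13-fold (0.18 ± 0.04, adjusted p = 0.0031, and 0.0768 with offsets for effective length). Syvn1, encoding the ubiquitin ligase HRD1, stood at 57.4, 49.7 and 52.9 CPM in undifferentiated controls and 45.2, 48.9 and 52.3 with BIGH3. Syvn1 in differentiated cells stood at 35.1, 36.4 and 33.7 CPM in controls and 30.8, 36.4 and 37.7 with BIGH3, lower in both differentiated groups, which overlapped (95% interval of the BIGH3 effect -0.17 to 0.16). Herpud1, a stress-induced partner of HRD1, stood at 50.6, 50.0 and 54.1 CPM in undifferentiated controls and 53.6, 52.4 and 53.0 with BIGH3. Herpud1 in differentiated cells stood at 59.9, 65.6 and 63.0 CPM in controls and 63.9, 66.2 and 69.8 with BIGH3, with overlap (0.08 ± 0.05, adjusted p = 0.227).

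Derl2, another derlin, ranged from 71.1 to 80.6 CPM in differentiated and from 78.9 to 95.6 CPM in undifferentiated libraries, and its gene-level value hid a change among its transcripts. Its retained-intron transcript took 28.5% ± 3.0 of the gene's estimated reads in undifferentiated controls, 27.0% ± 0.97 in undifferentiated BIGH3 libraries, 10.3% ± 0.64 in differentiated controls and 15.2% ± 1.6 in differentiated BIGH3 libraries (SD, n = 3). The shorter of its main coding transcripts (1466 bases) took 24.5% ± 1.5, 25.8% ± 1.7, 38.8% ± 3.6 and 30.1% ± 2.0 in the same order. No library of either differentiated group overlapped the undifferentiated ones in either share, but the split between overlapping transcripts is a model estimate and was not tested. The gene's BIGH3 effect in differentiated cells was 0.04 ± 0.07 on counts, and with transcript length taken into account it was lower and called (-0.27, adjusted p = 0.00326, with offsets for effective length, and -0.22, adjusted p = 0.0165, by limma in TPM).

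The sensors and regulators moved apart: 3 of 5 rose and 1 fell. Ppp1r15b, the constitutive regulator that directs a phosphatase to eIF2α and so opposes PERK (ENSMUSG00000046062.5, chromosome 1, 133131143 to 133139783, plus strand), stood at 390.1, 393 and 418 CPM in undifferentiated controls and 398, 385 and 389 with BIGH3. Ppp1r15b in differentiated cells stood at 298, 297 and 292 CPM in controls and 549, 534 and 549 with BIGH3. The 4 groups formed 3 separate levels, lowest in differentiated controls and highest in differentiated BIGH3 libraries, a 1.84-fold rise (0.88 ± 0.04, adjusted p = 7.79e-13). Atf6, the membrane-bound transcription factor (ENSMUSG00000026663.6, chromosome 1, 170704674 to 170867771, minus strand), stood at 57.5, 57.2 and 60.3 CPM in undifferentiated controls and 56.4, 56.9 and 55.7 with BIGH3. Atf6 in differentiated cells stood at 62.4, 65.3 and 65.4 CPM in controls and 78.9, 86.4 and 84.8 with BIGH3. Every treated differentiated library exceeded all others, 1.29-fold above the differentiated controls (0.37 ± 0.05, adjusted p = 3.47e-06). Eif2ak3, encoding PERK, stood at 41.8, 39.2 and 44.6 CPM in undifferentiated controls and 45, 41.7 and 40.9 with BIGH3. Eif2ak3 in differentiated cells stood at 53.4, 49.3 and 50.3 CPM in controls and 55.9, 59.6 and 58.0 with BIGH3, with the treated differentiated libraries highest (0.18 ± 0.06, adjusted p = 0.0224). That call did not hold without differentiated control 2 (adjusted p = 0.12), control 3 (0.0857), BIGH3 2 (0.108) or BIGH3 3 (0.0722), without the 3 or 4 libraries with liver transcripts (0.182 and 0.119), in TPM (0.132) or with offsets for effective length (0.114). Xbp1, the transcription factor whose mRNA IRE1 splices (ENSMUSG00000020484.18, chromosome 11, 5520659 to 5525893, plus strand), stood at 85.8, 87.8 and 81.8 CPM in undifferentiated controls and 89.2, 89.9 and 91.6 with BIGH3. Xbp1 in differentiated cells stood at 125, 127 and 126 CPM in controls and 114, 107 and 99.7 with BIGH3. It was lower with BIGH3 in all 3 differentiated libraries (-0.23 ± 0.05, adjusted p = 0.000593). Ern1, encoding IRE1, stood at 27.1, 29.2 and 29.3 CPM in undifferentiated controls and 30.8, 28.5 and 29.3 with BIGH3. Ern1 in differentiated cells stood at 44.2, 39.4 and 41.0 CPM in controls and 34.4, 35.7 and 42.1 with BIGH3 and was not called (-0.15 ± 0.08, adjusted p = 0.11). Its highest treated library, BIGH3 3, lay within the controls, and without it the fall in Ern1 was called (-0.26, adjusted p = 0.00887). It was also called without the 3 or 4 libraries with liver transcripts (0.0101 and 0.0134). Both of these settings leave out BIGH3 3 too, so they are not separate support. The IRE1-spliced form of Xbp1 lacks 26 bases, and none of the 4 annotated Xbp1 transcripts has an intron of that length (the shortest is 300 bases), so spliced and unspliced Xbp1 were not separated. The main coding transcript of Xbp1 held 94.6% ± 0.98, 95.5% ± 1.6, 96.9% ± 0.16 and 96.2% ± 0.71 of the gene's reads in the 4 groups.

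The translocation and export members included the largest fall of the list, Sec61b, and the largest rise after Ppp1r15b, Sec24d. Sec61b, the small β subunit of the protein channel (ENSMUSG00000053317.11, chromosome 4, 47474658 to 47483242, plus strand), stood at 95.8, 79.1 and 78.4 CPM in undifferentiated controls and 90.5, 92.3 and 96.0 with BIGH3. Sec61b in differentiated cells stood at 226, 244 and 254 CPM in controls and 131, 133 and 123 with BIGH3. All 3 treated differentiated libraries lay well below the controls of that state and above both undifferentiated groups, a 1.87-fold fall (-0.90 ± 0.07, adjusted p = 1.05e-09). Sec61a1, the pore-forming subunit of the same channel, stood at 171, 160.5 and 161 CPM in undifferentiated controls and 161, 161 and 162 with BIGH3. Sec61a1 in differentiated cells stood at 235, 250.5 and 236 CPM in controls and 235, 245 and 256 with BIGH3, with overlapping differentiated groups (95% interval -0.07 to 0.13). The interval of Sec61b (-1.04 to -0.76) does not meet that of its partner, a difference that was not itself tested. Sec24d, a cargo-binding subunit of the COPII coat needed for procollagen export (ENSMUSG00000039234.11, chromosome 3, 123267455 to 123365641, plus strand), stood at 105, 103 and 106 CPM in undifferentiated controls and 111, 104 and 101 with BIGH3. Sec24d in differentiated cells stood at 159, 172 and 175 CPM in controls and 243, 240.3 and 239 with BIGH3. The treated differentiated libraries were the highest, 1.43-fold above the controls (0.51 ± 0.05, adjusted p = 2.35e-08). Its promoter is the one with the UPRE core shown above. Sec61b shares 48.7% of its 31-base stretches with the predicted gene Gm10320 (32 reads over all libraries) and fewer with 2 others, and 11.0% of those of Ppp1r15b lie in the antisense gene Gm26616 (428 reads). Adding the reads of all such genes to the members changed no call in any comparison, an alternative chosen after seeing the data.

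**Figure D3:**
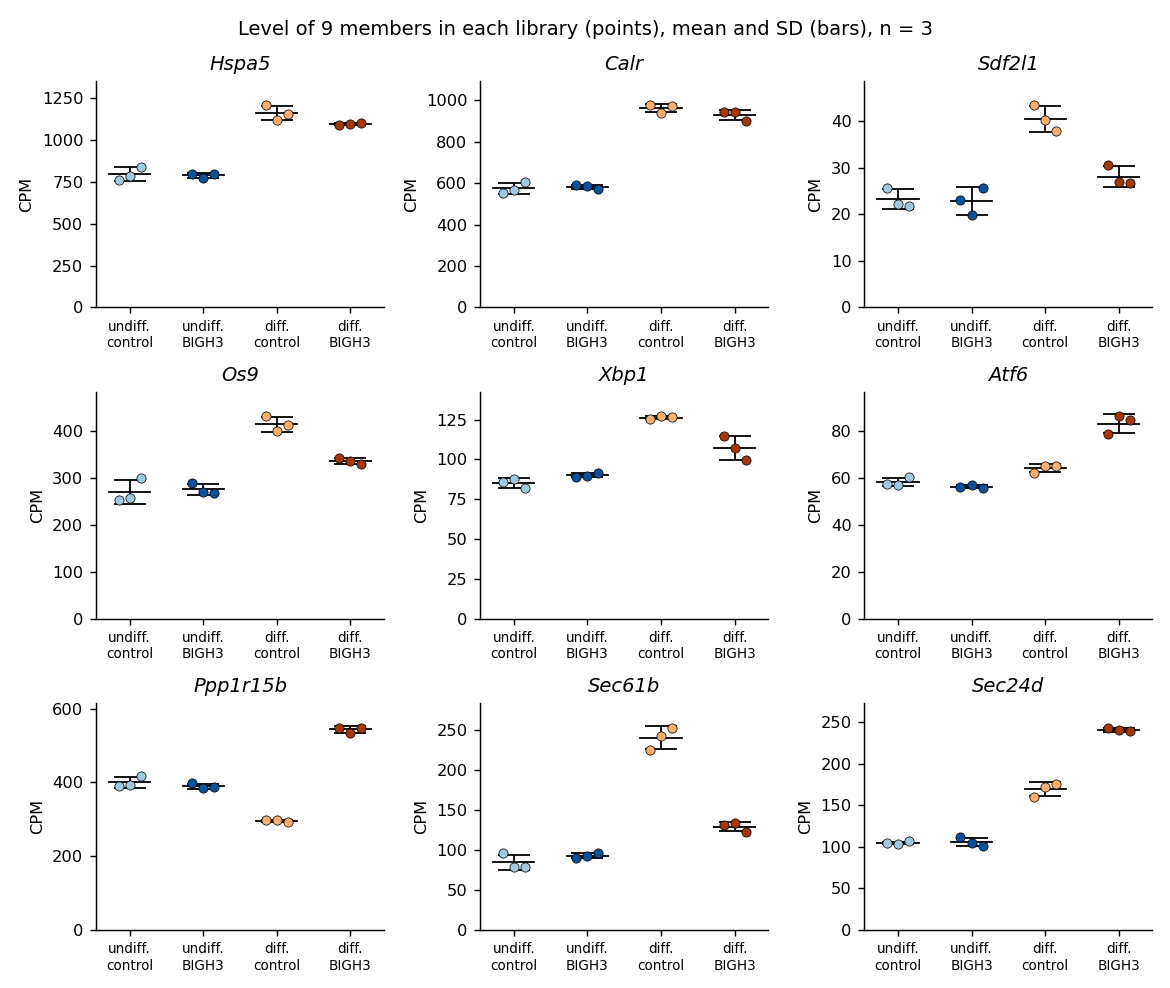
CPM of 9 members in each of the 12 libraries (points), with the mean and SD of each group of 3 (bars); each panel has its own axis from 0. Ppp1r15b and Sec24d are highest in differentiated BIGH3 libraries (534 to 549 and 239 to 243 CPM), while Sec61b, Sdf2l1, Os9 and Xbp1 lie between the undifferentiated libraries and the differentiated controls there.

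In undifferentiated cells no member was called with BIGH3. Of 31 members 0 passed the test, by edgeR and by DESeq2, and 0 had an unadjusted p below 0.05, beside 599 of all 14711 genes. Over all genes 0.0068% were called higher and 0.0136% lower. The member log2 fold changes lay between -0.18 (Pdia6) and 0.19 (Dnajb9), with a median of 0.02 against 0.00 over all genes. Leaving out Pdia6, their 95% intervals lay within -0.29 to 0.39, which bounds the size of any effect in these libraries. Ppp1r15b had an interval of -0.13 to 0.05 and Sec61b one of 0.00 to 0.28. The 3 treated libraries lay above the 3 controls for Xbp1 and below them for Atf6, by log2 fold changes of 0.08 and -0.05 that were not called. Over all genes tested the treated libraries lay wholly above the controls for 4.59% and wholly below them for 4.37%, so 1 of 31 members in each direction is near the background.

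The BIGH3 effect itself differed between the states for 11 of the 31 members (interaction of both factors, the difference of the log2 fold changes, edgeR), 6 towards higher and 5 towards lower in differentiated cells, where the background over all genes was 16.2% higher and 16% lower. The shares of 31 are near that background. The largest differences were Sec61b (-1.04 ± 0.09, adjusted p = 4.78e-08), Ppp1r15b (0.92 ± 0.06, adjusted p = 2.63e-10), Sdf2l1 (-0.51 ± 0.13, adjusted p = 0.00519), Sec24d (0.50 ± 0.07, adjusted p = 9.76e-06) and Atf6 (0.42 ± 0.07, adjusted p = 9.73e-05). Os9 (-0.33), Xbp1 (-0.32), Pdia4 (0.30), Hyou1 (0.28), Edem1 (0.19) and Canx (-0.15) completed the list. Sdf2l1 was not called without the 3 (adjusted p = 0.0502) or 4 (0.0921) libraries with liver transcripts, nor Os9 without the 4 (0.0552). In TPM, 4 remained higher (Pdia4, Atf6, Ppp1r15b, Sec24d) and 2 lower (Sdf2l1, Sec61b), against 15% and 7.72% of all genes. The Canx call was lost without any 1 library (adjusted p = 0.053 to 0.11) except undifferentiated control 3, differentiated control 2 and differentiated BIGH3 3, and the Edem1 call likewise (adjusted p = 0.0549 to 0.0974) except without undifferentiated control 1, undifferentiated BIGH3 1 and differentiated control 2. Sel1l was called without undifferentiated control 3 (0.0224), differentiated control 3 (0.0381) or differentiated BIGH3 3 (0.0443), and Sil1 without undifferentiated control 3 (0.0349). Without the 4 libraries with liver transcripts 7 members were called, 5 higher and 2 lower. The share of all genes called in that setting is not given here, so the smaller number is not read as a trait of the members.

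Most of the list was higher in differentiated cells. In control cells 23 of 31 members were higher and 3 lower in the differentiated state, with a median log2 fold change of 0.36, against 29.1% higher and 28.6% lower and a median of -0.01 over all genes. In BIGH3 treated cells 27 were higher and 3 lower (median 0.35), against 28.9% higher and 27.7% lower (median 0.01). The first of these comparisons shares its differentiated controls with the BIGH3 comparison above and its undifferentiated controls with the other, and the second shares the treated libraries, so the comparisons are not independent. These counts depend on the scale. With library totals in place of TMM the median of all genes moved to -0.16 in control and -0.10 in treated cells, and in TPM (limma, log2 of TPM + 1) to -0.25 and -0.16, so a change is read against that shift. With library totals 18 members were higher and 4 lower in control cells and 21 and 3 in treated cells, and in TPM 12 and 5, and 10 and 3. Over all genes, library totals gave 19.9% higher and 40.1% lower in control cells and 21.1% and 36.1% in treated cells, and TPM gave 11.7% higher and 47.3% lower in control cells and 14.4% and 39.2% in treated cells. On the TPM scale 27 of 31 members lay above the median of all genes in each comparison. On all 3 scales 12 members were called higher in control cells (Hspa5, Calr, Dnajb9, Dnajb11, Sdf2l1, Manf, Creld2, Os9, Xbp1, Sec61a1, Sec61b and Sec24d) and 2 lower (Syvn1 and Ppp1r15b). In treated cells 10 were higher on all 3 (Hspa5, Calr, Dnajb11, Manf, Pdia4, Atf6, Ppp1r15b, Sec61a1, Sec61b and Sec24d) and 3 lower (Syvn1, Sel1l and Derl2).

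**Figure D4:**
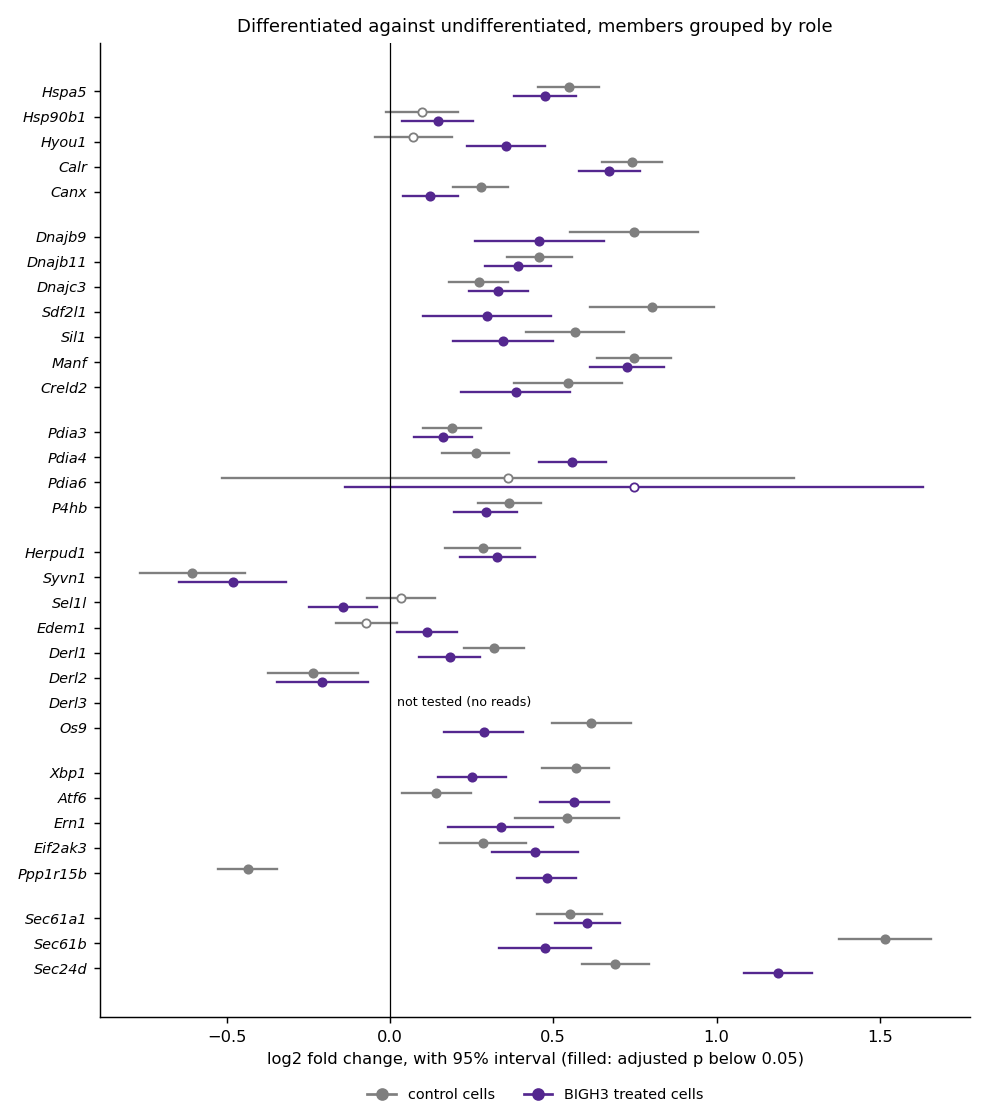
Log2 fold change of each member in differentiated against undifferentiated cells (points) with its 95% interval (lines), in control (grey) and BIGH3 treated (purple) cells, from counts scaled by TMM. Most points lie right of 0, Syvn1 and Derl2 lie left of it in both, and Ppp1r15b falls in control (-0.44) and rises in treated (0.48) cells; in TPM Derl2 stays below 0 in both, and offsets for effective length put it at 0.21 in control cells.

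Among the chaperones, Calr had log2 fold changes of 0.74 in control and 0.67 in treated cells (0.43 and 0.38 in TPM). Hspa5 had log2 fold changes of 0.55 in control and 0.47 in treated cells (0.26 and 0.28 in TPM). Calr was 1.67-fold higher in control cells (0.74 ± 0.04, adjusted p = 1.16e-11) and Hspa5 1.46-fold (0.55 ± 0.05, adjusted p = 2.11e-09), and for both genes every differentiated library lay above every undifferentiated one. Hsp90b1 had log2 fold changes of 0.10 in control and 0.15 in treated cells (-0.18 and -0.05 in TPM), and its libraries overlapped in control cells. It was not called in control cells (adjusted p = 0.118), but was called lower in TPM (0.0417) and higher on counts without undifferentiated control 3 (0.00911). In treated cells its call (adjusted p = 0.0229) was lost without undifferentiated BIGH3 1 (0.0587) or 3 (0.0914) and without differentiated BIGH3 1 (0.148) or 2 (0.0655). Hyou1 had log2 fold changes of 0.07 in control and 0.36 in treated cells (-0.22 and 0.09 in TPM), and was called higher in treated cells with TMM but not in TPM (adjusted p = 0.397), where it was lower in control cells (0.0394). Read against the median of all genes in TPM (-0.25 in control cells), Hsp90b1 lay at 0.07 and Hyou1 at 0.02 there. Canx had log2 fold changes of 0.28 in control and 0.12 in treated cells (-0.11 and -0.27 in TPM), so its sign turns with the scale. Read against the median of all genes in TPM, Canx lay at 0.14 in control and -0.11 in treated cells. Its call in treated cells was lost without undifferentiated BIGH3 3 (adjusted p = 0.0816) or differentiated BIGH3 1 (0.0624).

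All 7 cochaperones and secreted proteins were higher in differentiated cells of both treatments, although Dnajc3 (-0.03 in control cells) and Sil1 (-0.06 in treated cells) turned below 0 in TPM. Sdf2l1 had log2 fold changes of 0.80 in control and 0.30 in treated cells (0.50 and 0.07 in TPM). Manf had log2 fold changes of 0.75 in control and 0.72 in treated cells (0.45 and 0.54 in TPM), and Dnajb9 had log2 fold changes of 0.75 in control and 0.46 in treated cells (0.38 and 0.21 in TPM). Dnajb11 had log2 fold changes of 0.46 in control and 0.39 in treated cells (0.17 and 0.18 in TPM). Creld2 had log2 fold changes of 0.55 in control and 0.39 in treated cells (0.26 and 0.18 in TPM), and Sil1 had log2 fold changes of 0.57 in control and 0.35 in treated cells (0.20 and -0.06 in TPM). Dnajc3 had log2 fold changes of 0.27 in control and 0.33 in treated cells (-0.03 and 0.13 in TPM). Manf, the best separated of them, was 1.68-fold higher in control cells (adjusted p = 2.67e-10), and its differentiated libraries (151 to 171 CPM) lay far above the undifferentiated ones (92.1 to 104 CPM). The Sdf2l1 call in treated cells was lost without undifferentiated BIGH3 2 (adjusted p = 0.0747) or differentiated BIGH3 1 (0.0813).

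Of the disulfide isomerases, P4hb, Pdia4 and Pdia3 were called higher in both comparisons on counts with TMM. P4hb had log2 fold changes of 0.37 in control and 0.29 in treated cells (0.06 and 0.00 in TPM), the last of these marginally below 0. Pdia4 had log2 fold changes of 0.26 in control and 0.56 in treated cells (-0.03 and 0.35 in TPM). Pdia3 had log2 fold changes of 0.19 in control and 0.16 in treated cells (-0.09 and -0.04 in TPM), so that Pdia4 in control cells and Pdia3 in both turned below 0 in TPM. Pdia6 had log2 fold changes of 0.36 ± 0.38 and 0.75 ± 0.39 that were not called, and was called in treated cells without differentiated BIGH3 3 (1.05, adjusted p = 0.0179). In ER-associated degradation the members went both ways. Os9 had log2 fold changes of 0.62 in control and 0.29 in treated cells (0.34 and 0.07 in TPM). Derl1 had log2 fold changes of 0.32 in control and 0.18 in treated cells (0.03 and -0.03 in TPM). Herpud1 had log2 fold changes of 0.28 in control and 0.33 in treated cells (-0.08 and 0.05 in TPM), so that Derl1 in treated cells and Herpud1 in control cells turn below 0 in TPM. Syvn1, in contrast, fell by 0.61 and 0.48 on the log2 scale (adjusted p = 1.14e-06 and 2.58e-05, with -0.78 and -0.73 in TPM). Its promoter holds an ERSE match 44 to 26 bases before the start, and a link between match and change was not tested. The differentiated libraries of Syvn1 (30.8 to 37.7 CPM) all lay below the undifferentiated ones (45.2 to 57.4 CPM). Derl2 fell on counts (-0.24 and -0.21) but rose in control cells once effective length was taken as an offset (0.21, adjusted p = 0.00956), and its call in treated cells was lost without undifferentiated BIGH3 2 (adjusted p = 0.067). Sel1l had log2 fold changes of 0.03 in control and -0.14 in treated cells (-0.28 and -0.40 in TPM). Edem1 had log2 fold changes of -0.07 in control and 0.11 in treated cells (-0.29 and -0.02 in TPM), and neither gene was called in control cells with TMM, while Sel1l was called lower there in TPM (adjusted p = 0.0465). In treated cells Sel1l was lower, and not so without undifferentiated BIGH3 1 (0.0761) or differentiated BIGH3 1 (0.0728). The Edem1 rise there (adjusted p = 0.0368) was lost without any 1 of the 6 libraries compared (0.0754 to 0.117).

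Among the sensors, Xbp1 had log2 fold changes of 0.57 in control and 0.25 in treated cells (0.24 and 0.02 in TPM). Ern1 had log2 fold changes of 0.54 in control and 0.34 in treated cells (0.23 and 0.16 in TPM). Both were called with TMM, while Xbp1 in treated cells was not called in TPM (adjusted p = 0.833). Xbp1 was 1.48-fold higher in control cells (0.57 ± 0.05, adjusted p = 4.32e-09). Atf6 had log2 fold changes of 0.14 in control and 0.56 in treated cells (-0.13 and 0.34 in TPM). Eif2ak3 had log2 fold changes of 0.28 in control and 0.44 in treated cells (-0.01 and 0.21 in TPM). The Atf6 call in control cells (adjusted p = 0.0209) was lost without undifferentiated control 1 (0.0627), undifferentiated control 2 (0.0795), differentiated control 2 (0.0707) or differentiated control 3 (0.0799). Its value there fell below 0 with library totals (-0.01) and in TPM, where the medians of all genes were -0.16 and -0.25. In treated cells the rise was called on all 3 scales (adjusted p = 6.73e-09 with TMM). Ppp1r15b was the member with opposite calls, lower in control cells (-0.44 ± 0.04, adjusted p = 3.09e-08) and higher in treated cells (0.48 ± 0.04, adjusted p = 7.83e-09), with TPM values of -0.69 and 0.27. Sec61b had the largest rise of the list in control cells, 2.86-fold (1.52 ± 0.07, adjusted p = 3.46e-13, 1.22 in TPM), and rose 1.39-fold in treated cells (0.47 ± 0.07, adjusted p = 6.46e-06, 0.28 in TPM). Sec24d had the largest rise in treated cells, 2.28-fold (1.19 ± 0.05, adjusted p = 2.69e-14, 0.93 in TPM), against 1.61-fold in control cells (0.69 ± 0.05, adjusted p = 1.97e-10, 0.36 in TPM). Sec61a1 had log2 fold changes of 0.55 in control and 0.60 in treated cells (0.21 and 0.39 in TPM).

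**Figure D5:**
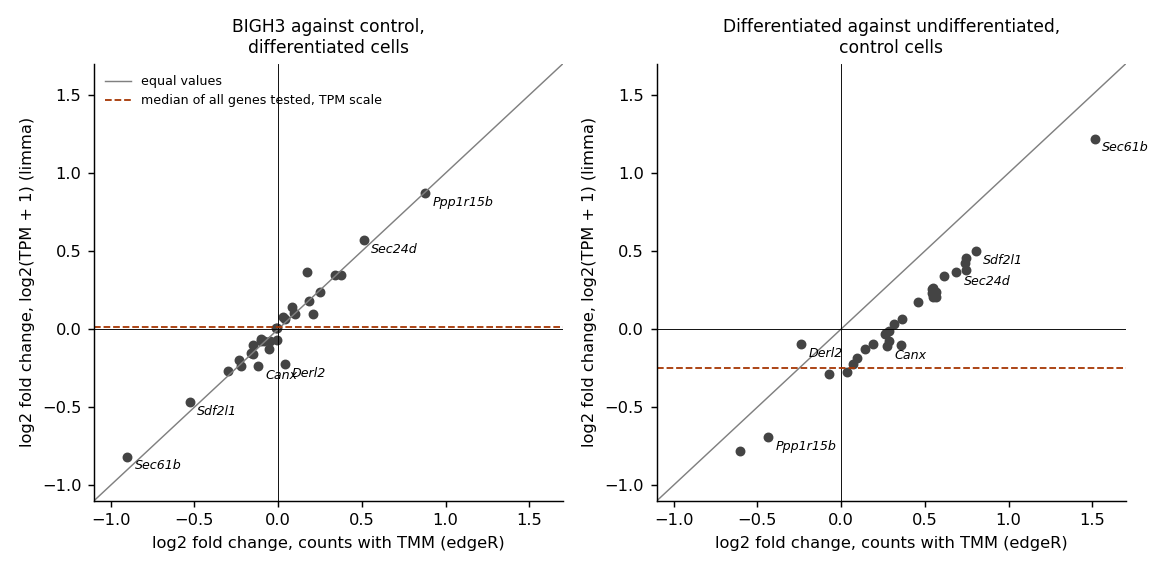
Log2 fold change of the 31 tested members from counts scaled by TMM (x axis) and from log2(TPM + 1) (y axis), for BIGH3 in differentiated cells (left) and for differentiation in control cells (right), with the line of equal values and the median of all genes in TPM (dashed). On the left the median is 0.02 and most points lie near the line, with Derl2 (0.04 and -0.22) and Edem1 (0.18 and 0.37) farthest from it, and on the right the points other than Derl2 lie below the line, with the median at -0.25.

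What the promoter windows hold is set here beside the calls. Of the 11 tested members with a match, 1 rose and 1 fell with BIGH3 in differentiated cells (Sec24d and Canx), and of the 13 whose window holds none, 3 rose and 5 fell. Over all genes 22.6% were higher and 22.9% lower in that comparison. With differentiation in control cells 8 of the 11 rose and 1 fell (median 0.36), beside 10 and 1 of the 13 (median 0.37), on the TMM scale. Over all genes 29.1% were higher and 28.6% lower on that scale, and the member counts depend on the scale, as given above. These counts are descriptions of few genes and no difference between them was tested.

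The rest of the pathway was read from 7 further lists, also chosen with earlier results of these data known. The PERK and ATF4 arm held 11 genes, of which 2 rose and 5 fell with BIGH3 in differentiated cells, where 22.6% of all genes were higher and 22.9% lower. Ddit3, encoding the stress factor CHOP, fell from 83.8 ± 1.84 to 50.3 ± 1.90 CPM (-0.74 ± 0.06, adjusted p = 2.15e-09), after standing at 41.2 ± 0.593 and 41.1 ± 3.43 CPM in undifferentiated control and treated libraries. Its BIGH3 effect differed between the states by -0.73 ± 0.09 (interaction, adjusted p = 1.02e-06). Eif2ak4, encoding the amino acid sensor kinase GCN2, rose (0.92 ± 0.06, adjusted p = 9.6e-11). Atf4, the transcription factor of this arm, had -0.14 ± 0.05 (adjusted p = 0.0161), a call lost in TPM (0.141) and without the 3 or 4 libraries with liver transcripts (0.0727 and 0.123). Ppp1r15a, the stress-induced counterpart of Ppp1r15b, had -0.22 ± 0.08 (adjusted p = 0.0333), opposite in sign to Ppp1r15b, and the call was lost without differentiated control 1 (0.0915), differentiated control 2 (0.0747), differentiated BIGH3 2 (0.0529) or differentiated BIGH3 3 (0.102). Trib3, a target of CHOP, was not called (-0.05 ± 0.15, adjusted p = 0.81). With differentiation in control cells Ddit3 (1.02), Trib3 (1.40), Atf4 (0.36) and Ppp1r15a (0.41) were higher and Sesn2, a stress-induced inhibitor of mTORC1 signalling, was lower (-0.49). In that comparison 5 of 11 rose and 3 fell (3 and 5 in TPM), beside 29.1% and 28.6% of all genes (11.7% and 47.3% in TPM). The calls of Atf4 and Ppp1r15a there were lost in TPM (0.195 and 0.302).

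Genes of COPII export were mostly higher where they moved with BIGH3 in differentiated cells: 12 of 22 rose and 1 fell (8 and 0 in TPM; 10 and 1 without the 4 libraries with liver transcripts), with a median log2 fold change of 0.14 against -0.01 over all genes and 22.6% and 22.9% called (19.3% and 15.7% in TPM). Sec24a, another cargo-binding subunit beside Sec24d, had 0.48 ± 0.06 (adjusted p = 2.25e-06) and Mcfd2, a cargo receptor subunit, 0.37 ± 0.05 (2.7e-06). Of 24 other disulfide and folding enzymes tested, 13 rose and 5 fell (median 0.16; 11 and 5 in TPM). Ganab, the catalytic subunit of glucosidase II, rose (0.40 ± 0.04, adjusted p = 1.49e-07) and Txndc5, a disulfide isomerase, fell (-0.66 ± 0.05, 1.84e-09). In the list of translocon, signal peptidase and oligosaccharyl transferase genes 3 of 30 rose and 2 fell (4 and 0 in TPM). Ostc (0.48 ± 0.06, adjusted p = 5.69e-07) and Stt3a (0.37 ± 0.05, 1.34e-06), which act in N-glycosylation, were higher. Other ER-associated degradation genes gave 7 higher and 4 lower of 21 (4 and 4 in TPM and without the 4 libraries with liver transcripts), with Edem2, which trims mannose from misfolded glycoproteins, lower (-0.44 ± 0.06, adjusted p = 2.02e-06) and the rhomboid protease gene Rhbdd1 higher (0.58 ± 0.08, 3.73e-06). Among 15 genes of sensor processing and other ER-bound factors 3 rose and 4 fell, with Traf2, an adaptor bound by IRE1, higher (1.06 ± 0.09, adjusted p = 2.01e-09) and Stim1, the ER calcium sensor, lower (-0.76 ± 0.05, 1.45e-10). Collagen folding genes went both ways, 5 higher and 7 lower of 14 (2 and 5 in TPM, 3 and 7 without the 4 libraries), with the prolyl hydroxylase subunit P4ha2 higher (0.76 ± 0.07, adjusted p = 1.97e-08) and Sparc, a collagen-binding matrix protein, lower (-0.39 ± 0.05, 4.73e-07). In undifferentiated cells 0 genes of these 7 lists were called by edgeR, with 3 at an unadjusted p below 0.05, and 0 by DESeq2.

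With differentiation in control cells 29.1% of all genes were higher and 28.6% lower with TMM, beside 11.7% and 47.3% in TPM. On counts with TMM, 18 of 22 COPII genes rose there and 1 fell (6 and 3 in TPM, where 1728 of all genes were higher and 6965 lower), with Tmed9 (0.55) and Surf4 (0.44), which sort cargo, first by p. In the list of translocon, signal peptidase and oligosaccharyl transferase genes 23 of 30 rose and 1 fell (8 and 6 in TPM), with the signal recognition particle receptor subunit Srprb (0.55) and the translocon-associated Ssr2 (0.45). Other folding enzymes gave 14 higher and 2 lower of 24 (4 and 9 in TPM), led by the collagen-directed prolyl isomerases Fkbp14 (0.98 ± 0.05, adjusted p = 4.97e-13) and Fkbp7 (1.00 ± 0.05, 6.51e-13). Other ER-associated degradation genes gave 14 and 0 of 21 (1 and 8 in TPM), with Edem2 (0.62) and Nploc4 (0.34, not called in TPM, adjusted p = 0.677). Sensor processing genes gave 7 and 3 of 15 (2 and 8 in TPM), with Stim1 (0.68) and Creb3l1, a membrane-bound factor of bone cells (0.57), higher, and collagen folding genes 8 and 2 of 14 (3 and 6 in TPM), with the lysyl hydroxylase Plod2 (0.73) and the prolyl 3-hydroxylase family member P3h3 (0.63). The split between higher and lower thus moves with the scale in each of these lists. In BIGH3 treated cells, where 28.9% of all genes were higher and 27.7% lower (14.4% and 39.2% in TPM), the same lists gave 18 and 1 of 22 for COPII (12 and 3 in TPM), 23 and 2 of 30 for the translocon list (12 and 7), 19 and 2 of 24 for folding enzymes (8 and 3), 10 and 0 of 21 for degradation (3 and 6), 5 and 3 of 15 for sensor processing (2 and 7), 7 and 3 of 14 for collagen folding (3 and 3) and 6 and 2 of 11 for the PERK and ATF4 arm (3 and 3).

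Of the named genes of these lists in treated cells, all on TMM, the disulfide isomerase Pdia5 was higher by 1.37 ± 0.09 on the log2 scale (adjusted p = 3.31e-11). Traf2 (0.98), Rhbdd1 (0.87), the ER-bound transcription factor gene Nfe2l1 (0.85), Plod2 (0.85), Tmed9 (0.75), Fkbp14 (0.72), Eif2ak4 (0.72), Ostc (0.71), Surf4 (0.64), Ssr2 (0.62) and Nploc4 (0.50) were higher on the log2 scale. Sesn2 (-1.01) and P4ha3, a catalytic subunit of collagen prolyl hydroxylase (-0.49), were lower. Trib3 (1.74), Ddit3 (0.29), Atf4 (0.26) and Ppp1r15a (0.23) were higher with TMM, and in TPM Ddit3 was not called (adjusted p = 0.463), nor were Atf4 (0.474) and Ppp1r15a (0.382). The Ppp1r15a call was also lost without undifferentiated BIGH3 2 (0.112), undifferentiated BIGH3 3 (0.0986), differentiated BIGH3 1 (0.0935) or differentiated BIGH3 2 (0.075). Over all genes the BIGH3 effect differed between the states towards higher for 16.2% and towards lower for 16% (15% and 7.72% in TPM). The shares without the 4 libraries with liver transcripts are not given here. The BIGH3 effect differed between the states for 9 COPII genes towards higher and 1 towards lower of 22 (6 and 0 in TPM, 3 and 0 without the 4 libraries) and for 10 and 5 of 24 other folding enzymes (9 and 2 in TPM, 6 and 5 without the 4). It differed for 1 and 3 genes of the PERK and ATF4 arm, 4 and 4 of other degradation genes, 2 and 0 of the translocon list, 2 and 3 of sensor processing and 3 and 6 of collagen folding (2 and 1 in TPM, 2 and 2 without the 4). Named by this difference of log2 fold changes, Traf2 (1.11 ± 0.12, adjusted p = 4.13e-07), Eif2ak4 (1.02), P4ha2 (0.80), Rhbdd1 (0.64), Sec24a (0.45), Sec24b (0.42), Stt3a (0.36) and Ostc (0.36) went towards higher. Stim1 (-0.66 ± 0.07, adjusted p = 4.9e-07), Txndc5 (-0.59), the membrane-bound disulfide isomerase gene Tmx3 (-0.54), Sparc (-0.38) and the ER selenoprotein gene Selenok (-0.37) went towards lower, of which Tmx3 (0.153) and Selenok (0.153) were not called in TPM (adjusted p in parentheses).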

How the data were processed

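RNA from 12 libraries (4 groups of 3, from the labels) was quantified by the authors with Salmon, per the submitters' processing notes. FastQC, cutadapt, StringTie and the mm10 build are also named, with no versions, per the submitters' processing notes, and no source used here gives the strand setting or the transcript annotation. Deposited per library were estimated counts (expected counts per transcript, reads shared between transcripts being divided by the model), per the file headers. The files also hold TPM, computed by the authors over all transcripts of a library, per the file headers, and transcript and effective lengths.

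Transcripts were assigned to genes with GENCODE M21 (GRCm38), which matched 137063 of 147828 (92.7%). The others held 1.28% to 3.67% of the reads and stayed out. Estimated counts were summed per gene and rounded, and 14711 genes passed edgeR's filter by group. Depth was 19014492 to 27612155 reads per library, and the median SE of a log2 fold change was 0.09. CPM were scaled by TMM.

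All comparisons came from 1 fit of edgeR's quasi-likelihood test (edgeR 4.0.16, R 4.3.3) to the 12 libraries, with 1 term per group, Benjamini-Hochberg adjustment over all genes tested and a threshold of 0.05. SEs were derived from the log2 fold change and its F statistic. Alternatives were DESeq2 1.42.0, library totals, no filter on low counts, offsets for effective length, limma 3.58.1 on log2(TPM + 1) and log2(TPM + 0.1), a replicate block, only the groups compared, and libraries left out. Scripts were tested on simulated data. Motifs were searched with Python 3.11.15.

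The members and lists were chosen with earlier results of these data known. Values in every library are given for 8 preset members (Hspa5, Hsp90b1, Xbp1, Atf6, Ern1, Eif2ak3, Ppp1r15b and Derl3) and for up to 3 members per role and comparison with the smallest adjusted p. Of the other pathway genes, up to 2 per list and comparison are named, plus Atf4, Ddit3, Ppp1r15a and Trib3. Of the genes listed, Tusc3 was not matched by symbol and 1 folding enzyme was not tested. Epithelial markers summed to 2.01 to 20.0 CPM. In each group they were highest in the library with most liver transcripts. These sums were 20.0 CPM in undifferentiated control 2, 11.3 in undifferentiated BIGH3 1, 11.4 in differentiated control 2 and 8.73 in differentiated BIGH3 3. Between libraries of 1 group, counts differed by more than sampling noise (chi-square per degree of freedom 4.82 to 26.7). Each library was counted as a sample, but such a spread may be technical and does not show that the libraries are separate cultures.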

Additional observations from a re-analysis of the deposited data

Results flagged for a closer look

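For 11 members the effect of BIGH3 differed between differentiated and undifferentiated cells by the test of the difference itself (interaction, edgeR, values as difference of log2 fold changes with the adjusted p). The difference was towards higher in differentiated cells for Ppp1r15b (0.92, adjusted p = 2.63e-10), Sec24d (0.50, 9.76e-06), Atf6 (0.42, 9.73e-05), Pdia4 (0.30, 0.00249), Hyou1 (0.28, 0.0101) and Edem1 (0.19, 0.0288). It was towards lower for Sec61b (-1.04, 4.78e-08), Sdf2l1 (-0.51, 0.00519), Xbp1 (-0.32, 0.00143), Os9 (-0.33, 0.00377) and Canx (-0.15, 0.0481). In TPM the calls of Hyou1 (adjusted p = 0.0836), Edem1 (0.348), Xbp1 (0.0613), Os9 (0.0668) and Canx (0.546) were lost (limma), and the other 6 were called with TMM, with library totals and in TPM. Without the 4 libraries with liver transcripts 7 members were called, while Edem1 (0.102), Sdf2l1 (0.0921), Os9 (0.0552) and Canx (0.174) were not (edgeR). Over all genes tested 16.2% differed towards higher and 16% towards lower with all libraries, and the shares without the 4 are not given here.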

How the results depend on the processing

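The count of members called in undifferentiated cells with BIGH3 was 0 under every alternative run. Leaving out 1 library at a time gave 13 to 15 members called with BIGH3 in differentiated cells (15 with all libraries), 0 in undifferentiated cells, 25 to 27 with differentiation in control cells (26) and 25 to 30 in treated cells (30), and 9 to 12 for the interaction (11). A group left with 2 libraries is there assumed to vary like the others. In TPM, with either pseudocount, the counts were 17 with differentiation in control cells, 13 in treated cells and 6 for the interaction. Without the 4 libraries with liver transcripts the interaction had 7. The cause was not tested. Where a member was called with TMM or under the alternative, directions turned as follows on the log2 scale (TPM + 1, with TPM + 0.1 in parentheses where it rounds differently). With differentiation in control cells, TPM gave Hsp90b1 -0.18, Hyou1 -0.22 (-0.23), Canx -0.11, Dnajc3 -0.025 (-0.026), Pdia3 -0.093, Pdia4 -0.032, Herpud1 -0.078 (-0.079), Sel1l -0.28, Atf6 -0.13 (-0.14) and Eif2ak3 -0.012 (-0.013), and library totals gave Atf6 -0.0076. Library totals also turned Hsp90b1 (-0.051), Hyou1 (-0.077) and Sel1l (-0.11) there, which were called neither so nor with TMM. In treated cells, TPM gave Hsp90b1 -0.049, Canx -0.27, Sil1 -0.064 (-0.065), Pdia3 -0.040, P4hb -0.00054 (-0.00053), Edem1 -0.020 and Derl1 -0.027 (-0.028), and offsets for effective length gave Canx -0.059. These signs are against 0, while the median of all genes in TPM + 1 was -0.25 in control and -0.16 in treated cells. Against that median Sel1l in control cells (-0.03) and Canx in treated cells (-0.11) lay below. The other members given for TPM in these comparisons lay above it. Derl2 turned with BIGH3 in differentiated cells (-0.27 with the offsets, -0.22 and -0.23 in TPM), with differentiation in control cells (0.21 with the offsets) and in the interaction (-0.27 with the offsets).

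The replicate number as a block gave 15 members called with BIGH3 in differentiated cells, 0 in undifferentiated cells, 26 and 30 with differentiation and 10 for the interaction. The Canx interaction was the call lost with the block (adjusted p = 0.0625, edgeR), and no other member or named pathway gene changed its call. Libraries with the same number mostly did not vary together, so the numbers are not taken to pair them. Of 18 correlations of their deviations from the group means, which ran from -0.22 to 0.34, 4 were over 0.1. The highest was between undifferentiated control 2 and differentiated control 2, both among the libraries with liver transcripts. Adding the reads of near-identical and overlapping genes, chosen after seeing the data, changed no call. With 3 libraries per group, differences of the size of the median SE are not detectable, and Pdia6 was the least precisely measured member tested.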
